A study of Mus musculus with 12 samples.

Results

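Contacts of captured fragments, mostly at gene promoters, were compared between mouse embryonic stem cells (ESCs) of 2 lines in which Polycomb repressive complex 1 (PRC1) was active. All 842 contacts of the deposited table were used, out of 842 in all, from 44 captured fragments, called baits. The paper describes profiles of 24 classical Polycomb target genes. The other 20 baits, with 428 of the contacts, are not named in the deposited bait list. The values are those of 2 of the 4 groups of the series, and 6 of its 12 samples. The first group was untreated PRC1CPM cells, clone 41, of genotype Ring1aI50A/D53K with Ring1b(WT->I53A/D56K)fl/fl and Rosa26::ERT2-Cre. In these cells Ring1a carries inactivating mutations throughout, so that catalysis rests on RING1B, which was of the wild-type form because no tamoxifen was given. The second group was the Tir1 line, named Control, which expresses a plant auxin receptor from Rosa26 but carries no degron on RING1B, and which received auxin (AUX) for 6 h. Both lines are male E14 ESCs and were grown in serum with leukemia inhibitory factor. The labels name 1 clone of PRC1CPM cells and none for Control. For Control the paper describes only the TIR1 insertion, with Ring1a deleted later in the degron line made from it. Control thus kept unedited Ring1a, so the lines also differed in active RING1A and in ERT2-Cre. Cell line with its genotype, auxin and capture experiment changed together and cannot be told apart. The 3 biological replicates of each group were pooled by the authors into 1 column, so every comparison is between 2 pooled libraries, with no spread between replicates and no test. Ligation reads hold no expression, so the identity of the cells was not checked against marker genes.

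PRC1 is a ubiquitin ligase for histone H2A that keeps developmental genes silent in ESCs. Its canonical forms hold a PCGF2 or PCGF4 subunit with CBX and PHC proteins, bind chromatin that carries H3K27me3, and are known to draw Polycomb-bound promoters together over long stretches of a chromosome. CaptureC reads such proximity as ligation: chromatin is crosslinked, cut with DpnII at GATC, ligated, and the fragments joined to a bait are pulled out with biotinylated probes and sequenced. A contact in the table is 1 fragment or a run of neighbouring fragments on the chromosome of the bait, and its CHiCAGO score rises as the reads exceed those expected at that distance.

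The probes and the fragments that they reached are shown first, since they define what was counted. All 24 named bait fragments began with GATC in GRCm38, and all 48 probes matched there on the plus strand as written. These 3 probes belong to baits whose contacts are described below, at Nkx2-2 (chr2:147185640-147185709), Hoxb3 (chr11:96343553-96343672) and Zfp503 (chr14:21987125-21987244), and the capitals mark the DpnII site.
Nkx2-2: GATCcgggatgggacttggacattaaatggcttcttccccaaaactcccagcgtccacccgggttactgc
Hoxb3: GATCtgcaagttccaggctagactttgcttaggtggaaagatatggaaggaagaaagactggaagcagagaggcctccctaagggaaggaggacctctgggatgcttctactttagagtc
Zfp503: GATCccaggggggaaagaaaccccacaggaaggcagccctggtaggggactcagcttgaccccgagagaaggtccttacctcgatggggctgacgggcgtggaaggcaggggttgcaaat

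The contacted fragments differed in CpG content by kind of site. Of the 6 fragments below, 4 lie in contacts that both lines shared at sites bound by RING1B and PCGF2, and 2 in shared contacts without such a site. Each is given as the 200 bases from the DpnII cut of the summit, the fragment that the table marks for a contact, plus strand of GRCm38, with every CpG in capitals. The Nkx2-1 bait reached the Pax9 locus (chr12:56695892-56696091), the Zfp503 bait the Zmiz1 locus (chr14:25457404-25457603), the Fli1 bait the Barx2 locus (chr9:31914123-31914322) and the Hoxd10 bait the Dlx1 locus (chr2:71545052-71545251). The last is labelled Dlx1 after the start site inside the wider contact. Its summit, and so the printed window, lies at the other end, beside the Dlx2 bait fragment (chr2:71546566-71546952).
Pax9: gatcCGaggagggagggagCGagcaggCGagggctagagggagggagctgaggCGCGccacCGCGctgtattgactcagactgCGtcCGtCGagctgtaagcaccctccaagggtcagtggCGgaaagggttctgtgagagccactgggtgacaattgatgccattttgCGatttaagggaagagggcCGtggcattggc
Zmiz1: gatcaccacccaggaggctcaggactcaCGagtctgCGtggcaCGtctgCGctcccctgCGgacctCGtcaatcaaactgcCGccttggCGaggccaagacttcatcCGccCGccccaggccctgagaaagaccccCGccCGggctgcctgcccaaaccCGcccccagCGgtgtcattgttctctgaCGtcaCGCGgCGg
Barx2: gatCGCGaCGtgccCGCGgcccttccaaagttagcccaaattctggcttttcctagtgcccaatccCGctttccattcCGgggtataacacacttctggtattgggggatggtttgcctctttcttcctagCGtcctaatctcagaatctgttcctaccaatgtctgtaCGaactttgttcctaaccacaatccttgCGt
Dlx1: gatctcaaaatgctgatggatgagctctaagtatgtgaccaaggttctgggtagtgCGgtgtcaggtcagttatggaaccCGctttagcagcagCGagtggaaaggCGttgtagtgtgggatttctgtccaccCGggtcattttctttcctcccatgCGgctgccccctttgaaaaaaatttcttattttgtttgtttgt
The other 2 were intergenic ends of the Nkx2-2 bait (chr2:147303758-147303957) and of the Igfbp5 bait (chr1:73262488-73262687).
Nkx2-2 intergenic end: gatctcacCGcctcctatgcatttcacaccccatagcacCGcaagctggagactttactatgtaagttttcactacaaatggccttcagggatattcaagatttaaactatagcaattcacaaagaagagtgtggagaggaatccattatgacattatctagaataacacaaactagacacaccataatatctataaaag
Igfbp5 intergenic end: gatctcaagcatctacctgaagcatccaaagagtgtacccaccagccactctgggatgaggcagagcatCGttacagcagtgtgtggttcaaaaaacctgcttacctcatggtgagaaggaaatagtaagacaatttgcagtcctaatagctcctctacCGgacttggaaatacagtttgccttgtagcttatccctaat
These windows held 13 CpGs for Pax9, 18 for Zmiz1, 10 for Barx2 and 6 for Dlx1, against 2 in each of the intergenic ends. The 6 are examples, and the kinds of site overlapped. Other shared windows at PCGF2 sites held as few as 0 (Isl1 with Parp8) and as many as 23 (Hoxb3 with Hoxb4). A shared window without such a site held 14 (Hoxb5 with Copz2).

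Of the 44 baits, 24 are named in the deposited bait list and 20 are not. The named baits had 414 contacts, of which 130 from 22 baits ended at a site of RING1B and PCGF2, called a PCGF2 site, and 284 ended at other sites. No such site was reached from Cdh11 or from Nlgn1. The PCGF2 peaks behind these sites were called in untreated PRC1CPM cells, not in Control. The 842 contacts held 102920 weighted reads in untreated PRC1CPM cells and 83656 in Control. At PCGF2 sites of named baits the median was 35 reads per contact in untreated cells (quartiles 8 and 188) and 39 in Control (quartiles 7.25 and 177), and at other sites 20 and 14.5. Values are normalized read counts, that is reads divided by all captured reads and by the number of baits of an experiment. The smallest step between Control values took 1 of 2 sizes by bait, and this was read as 2 bait sets with separate scales, of 19 and 25 baits with 18 and 6 of the named ones, a split that no label states. By these steps 1 read was worth 0.00112 units in untreated cells and 0.00159 or 0.00171 in Control. An equal number of reads in both lines therefore gives a log2 ratio of 0.51 in the smaller set and 0.62 in the larger, and neither that value nor 0 marks equal contact across the experiments.

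A contact was called in a line when its summit scored at least 5, whatever the scores of its other fragments. In 4 contacts, all at PCGF2 sites of named baits and called in neither line, the summit given lay outside the contact. At PCGF2 sites of named baits 86 of 130 contacts (66.2%) were called in untreated PRC1CPM cells, against 58.8% of all 842. In Control 69 (53.1%) were called, against 20.1% of all. Both lines called 34 contacts (26.2%), against 9.50% of all contacts. Of the rest, 52 were called in untreated cells alone, 35 in Control alone and 9 in neither. The shared 34 were 39.5% of those called in untreated cells and 49.3% of those called in Control. At other sites of the same baits untreated cells called 176 of 284 contacts, Control 28 and both lines 16. Control thus made most of its calls for named baits at PCGF2 sites, and untreated cells most of theirs elsewhere. A contact entered the table when any of the 4 groups scored at least 5, which includes these calls and those of groups not described here, so the counts are not a sample of all fragment pairs.

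Many calls that differed lay on neighbouring fragments of the same place. The Eomes bait met the Foxl2 region at 2 fragments, 1 called in untreated cells with 5 and 2 reads, and 1 called in Control with 0 and 4. Foxl2 encodes a factor of the ovary and eyelid. The Pax7 bait met 2 adjoining fragments at Nbl1, 1 called in untreated cells alone with 13 and 7 reads, and 1 called in both lines with 13 and 14. The Foxl2 fragments and the first at Nbl1 were chosen after their values were seen. When PCGF2-site contacts of a bait within 50 kb were joined, 85 loci remained, of which 68 were called in untreated cells, 57 in Control and 43 (50.6%) in both. Then 75.4% of the loci called in Control were also called in untreated cells, and 63.2% of those called in untreated cells also in Control. In 12 of the 43 shared loci no single contact was called in both lines. At other sites joining gave 97 loci, of which 20 were shared (20.6%).

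**Figure D1:**
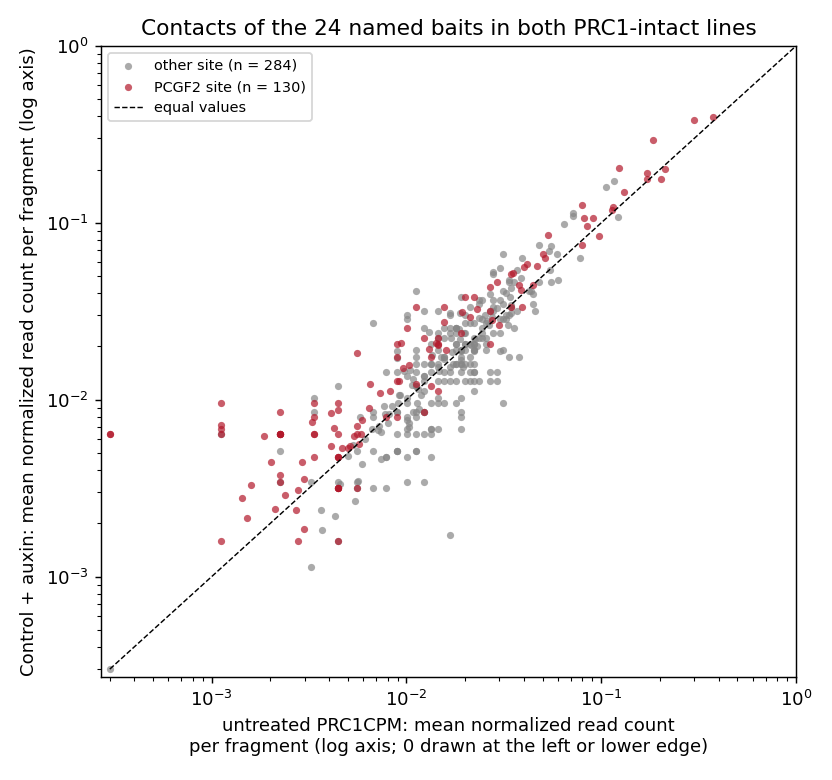
Mean normalized read count per fragment of the 414 contacts of named baits in untreated PRC1CPM cells (x axis) and in Control with auxin (y axis), both logarithmic. Red points are the 130 contacts at PCGF2 sites and grey points the 284 at other sites, and the red points lie above the line of equal values for 107 of 130.

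The order of the contacts was much alike in both libraries when read as counts. Over the 130 contacts at PCGF2 sites the Spearman correlation of the mean normalized read counts was 0.90, and the median of the correlations within the 11 baits with at least 5 such contacts was 0.93 (range 0.10 to 1.00). The points share baits, and distance from the bait alone had a correlation of -0.94 with the count in untreated cells and of -0.90 in Control. Contacts over 10 Mb away, with a median of 4 and 4.5 reads, had a correlation of -0.12 between lines (n = 24). For the scores the correlation over all 130 was -0.20, within a table that leaves out contacts with low scores in every group. These correlations are descriptions of pooled libraries.

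Whether the strongest contact of a bait was the same in both lines depended on the measure. Among the 19 baits with at least 2 contacts at PCGF2 sites, 13 had their highest mean normalized count at the same contact in both lines, and 18 had the same contact lead by summed count. By mean score and by summit score the same contact led for 5 of 19 baits each, and among contacts over 1 Mb by mean count for 5 of 11. The Nkx2-1 bait, at the gene of a lung, thyroid and forebrain homeodomain factor, reached Pax9, a paired-box gene, with 2502 reads in untreated cells and 2451 in Control (138.7 kb). The log2 ratio of Control to untreated cells for this contact was 0.48, with an exact 95% interval of 0.40 to 0.56. Intervals of single contacts rest on reads without a pseudocount and cover counting error only, since reads carried no molecular identifiers and replicates were pooled. By mean count per fragment the Nkx2-2 bait, at the gene of a ventral neural tube and islet factor, had its strongest contact beside Nkx2-4, a related gene, at 2 adjoining fragments. The first led in untreated cells, with 73 reads there and 67 in Control (log2 ratio 0.39, interval -0.11 to 0.89), and the second led in Control, with 71 and 79 reads. Summed over all its fragments, the wider contact of this bait at Pax1 held more reads, 1302 and 1365. The Sp5 bait, a target gene of Wnt signalling, reached Gad1, which encodes a glutamate decarboxylase, with 691 and 717 reads (0.56, 0.41 to 0.72). By the lower of both mean counts, the Hoxb1, Hoxb2 and Hoxb3 baits each had their strongest contact at the same fragment beside Hoxb4 (chr11:96318790-96320153), although a fragment at Hoxb5 led for Hoxb1 in Control. Hoxb3 had 335 reads there in untreated cells against 249 in Control, Hoxb2 190 and 127, and Hoxb1 182 and 111. The log2 ratios at this fragment were 0.08, -0.07 and -0.20, with intervals whose upper ends lay below 0.51. These 3 short contacts within the Hoxb cluster thus lay near equal normalized counts, below the median of the contacts at PCGF2 sites (0.41).

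By the lower of both mean counts, several other baits had strongest contacts called in 1 line alone, some with few reads. Others were called in both lines, such as Islr2 with Sema7a (373 and 390 reads) and Nptx1 with Cbx8 (261 and 255). Dlx2 met its neighbour Dlx1 at 18.4 kb with 166 and 184 reads, and Hoxb5 an intronic fragment at 27.9 kb with 111 and 129, and both were called in Control alone. Hoxd10 met Hoxd3 with 243 and 200 reads and Hcrtr1 met Adgrb2 with 45 and 42, and both were called in untreated cells alone. Gata5, the gene of a cardiac and gut GATA factor, met Bhlhe23, a bHLH gene, with 26 and 29 reads, and Fgf9 met Lats2, a kinase gene of the Hippo pathway, with 8 and 11, again with calls in Control alone. Igfbp5 met Tns1 with 11 and 5 reads, its sole contact at a PCGF2 site and a call of untreated cells alone.

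The 10 contacts with the highest scores in both lines included 5 that ended at genes of a list of developmental transcription factors. This was near the share over all 130 PCGF2-site contacts, of which 59 (45.4%) ended at such genes. That list was made by gene symbol and leaves out Insm1 and Ets1, which are also among the 10. Nkx2-2 and Foxa2, which encodes a pioneer factor of endoderm and floor plate, lie 843.6 kb apart and were joined by 931 reads in untreated cells and 905 in Control, with mean scores of 9.59 and 11.1. Nkx2-1 and Foxa1, the gene of a related pioneer factor, lie 981.7 kb apart and were joined by 884 and 676 reads, with mean scores of 9.38 and 8.72. The log2 ratios were 0.47 (0.34 to 0.60) and 0.12 (-0.02 to 0.27), so the interval for Foxa2 held the ratio of equal reads (0.51) and that for Foxa1 lay below it. The Nkx2-2 bait also reached the locus of Insm1, a neuroendocrine zinc-finger gene that lies beside Cfap61, with 415 and 348 reads, and Nkx2-1 reached Sstr1, a somatostatin receptor gene, with 35 and 46. The other contacts among the 10 with the highest score in both lines were Pax9, Nkx2-4, Dmbx1 with Foxe3 (74 and 72 reads at 1011 kb), Fli1 with the neighbouring ETS factor gene Ets1 (36 and 33 reads at 152.7 kb), Isl1 with Parp8 (14 and 16) and Pax7 with Nbl1 (13 and 14). Of these, Ets1, Parp8 and Nbl1 rest on few reads.

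**Figure D2:**
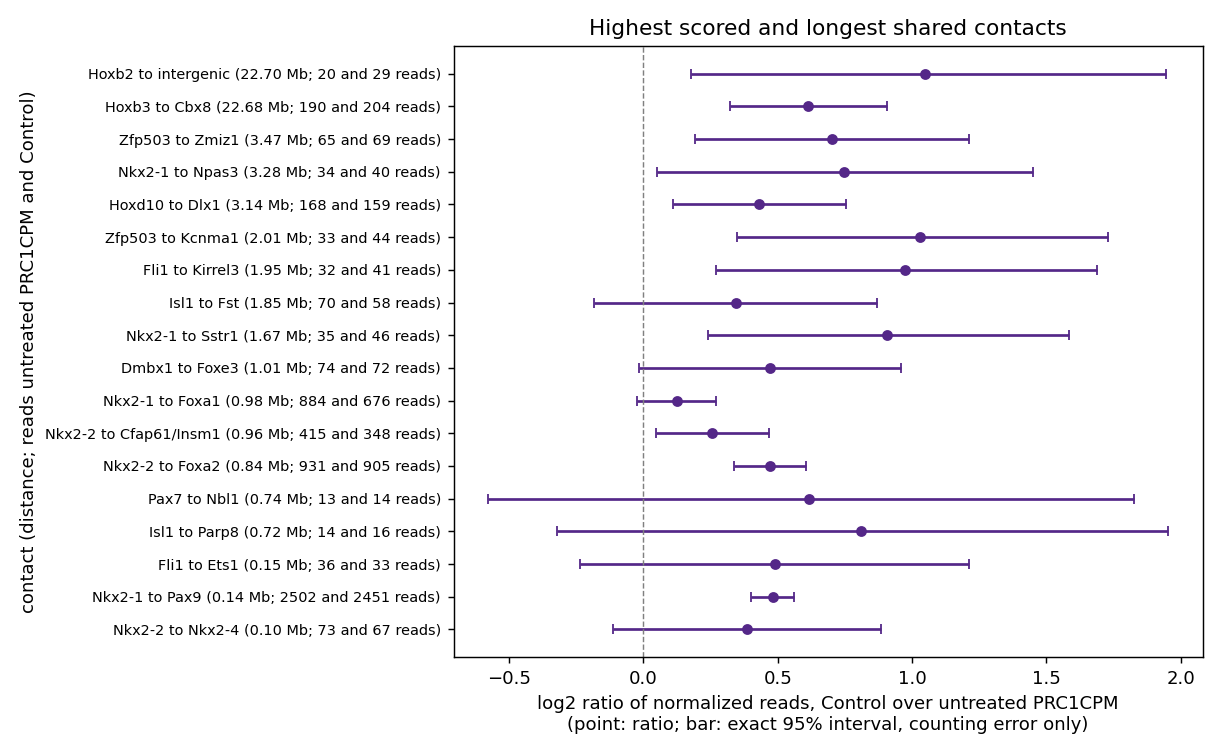
Log2 ratio of normalized reads, Control over untreated PRC1CPM cells, for the contacts with the highest score in both lines and the longest contacts called in both that are described. Points are ratios and bars exact 95% intervals that cover counting error only, ordered by distance. All ratios lie between 0.12 and 1.05, and the Pax9 contact has the narrowest interval (0.40 to 0.56).

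Calls at PCGF2 sites were spread unevenly over the baits. Untreated cells called at least 1 such contact for 21 of 22 baits and Control for 19, and 12 baits had a contact called in both lines. Nkx2-1 had 6 shared contacts of 13 and Nkx2-2 5 of 11, followed by Hoxb3 (4 of 11), Fli1 (4 of 6), Dmbx1 (3 of 4) and Isl1 (3 of 4). Dlx2 had 15 contacts, of which untreated cells called 8 and Control 5, and no contact was shared. Hoxb1 had 12, of which 6 were called in untreated cells, 2 in Control and none in both. The shared contacts of Dmbx1, a homeobox gene of the midbrain, ended at Tal1 (485 and 464 reads), a bHLH gene of blood formation, at Foxd2 (230 and 227) and at Foxe3. Those of Nkx2-2 included Pax1, a paired-box gene of the sclerotome, with 1302 and 1365 reads at 172.0 kb, and those of Nkx2-1 included its neighbour Nkx2-9 with 1048 and 871. The Tal1, Foxd2, Pax1 and Nkx2-9 contacts were chosen after their values were seen. Their log2 ratios were 0.45, 0.49, 0.58 and 0.24.

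Several PCGF2 sites were ends of more than 1 bait. The 4 Hoxb baits had 15 contacts inside the Hoxb cluster, with 20104 reads in untreated cells and 15478 in Control, of which 8 were called in untreated cells, 7 in Control and 3 in both. The same baits had 8 contacts at Hoxb13, the most distant gene of the cluster, with 6683 and 5210 reads, and untreated cells called 6 of them, Control 1 and both lines none. They also met the Sp6 and Scrn2 locus at 4 contacts with 158 and 170 reads. On chromosome 2, Lrp2, which encodes the endocytic receptor megalin, was an end of Dlx2, Hoxd10 and Sp5, with 73 and 69 reads over 5 contacts and no shared call, although joined within 50 kb the contacts of Dlx2 and of Hoxd10 there were each called in both lines. An intergenic site (chr2:116551116-116561952) was met by Nkx2-2 and Hoxd10 at 4 contacts with 11 and 21 reads. Contacts of neighbouring Hoxb baits with 1 end are not independent, as the baits lie close together.

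Of the longest contacts that both lines called, a pair ran from the Hoxb cluster to Cbx8 and its surroundings. CBX8 is a chromobox subunit of canonical PRC1. The Hoxb3 bait met Cbx8 at 22680 kb with 190 reads in untreated cells and 204 in Control. The Hoxb2 bait met intergenic sequence 9.39 kb from Cbx8 at 22698 kb, with 20 and 29 reads. The log2 ratios of these contacts were 0.61 for Cbx8 (0.32 to 0.91) and 1.05 for the intergenic end (0.18 to 1.95), and both intervals held the ratio of equal reads (0.51). Cbx8 was also met by Nptx1, which encodes a neuronal pentraxin and lies on the same chromosome at 501.6 kb, with 261 and 255 reads and a call in both lines. The Hoxb1 bait met the Cbx8 end with 32 and 44 reads and was called in Control alone, and the Hoxb2 bait met it with 32 and 27 reads and was called in untreated cells alone. Those Hoxb1 and Hoxb2 values were chosen after they were seen.

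Shorter shared contacts of over 1 Mb joined further pairs. Zfp503, which encodes a zinc-finger repressor, met Zmiz1 at 3468 kb with 65 and 69 reads and Kcnma1, a potassium channel gene, at 2010 kb with 33 and 44. Nkx2-1 met Npas3, a neuronal bHLH-PAS gene, at 3281 kb with 34 and 40. Fli1 met Kirrel3 at 1945 kb with 32 and 41, and Isl1, the gene of a LIM homeodomain factor, met Fst, the gene of an activin antagonist, at 1845 kb with 70 and 58. The log2 ratios of these 5 contacts lay between 0.34 and 1.03, and every interval held the ratio of equal reads. Hoxd10 met the locus of Dlx1, a homeobox gene of the forebrain and limb, at 3145 kb with 168 and 159 reads. This contact was called in both lines (0.43, 0.11 to 0.75), and its summit lay beside the Dlx2 bait fragment. Seen from the Dlx2 bait, the same pair of regions gave contacts at Hoxd13 to Hoxd11 (85 and 66 reads), Hoxd9 (24 and 24) and Hoxd3 (45 and 38), which were called in untreated cells alone. Of the 8 contacts of Dlx2 over the Hoxd cluster, Control called those at Hoxd1 (3 and 4 reads) and beyond Hoxd3 (4 and 4), and joined within 50 kb the cluster was called in both lines. The summit scores at the first 3 were 10.5, 7.67 and 6.17 in untreated cells, against 0, 2.22 and 2.26 in Control. The reads given are sums over all fragments of a contact, so they do not show the reads of the summit. These Dlx2 contacts were chosen after their values were seen, as were those that follow. The Dlx1 locus was also met by the Sp5 bait at 1052 kb, with 234 and 162 reads and a call in untreated cells alone. Eomes and Ctdspl, which are both baits, met each other in each direction at about 450 kb: the Ctdspl bait met a fragment within Eomes with 18 and 24 reads, and the Eomes bait met 2 fragments at Ctdspl with 17 and 15 reads in one and 10 and 21 in the other.

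**Figure D3:**
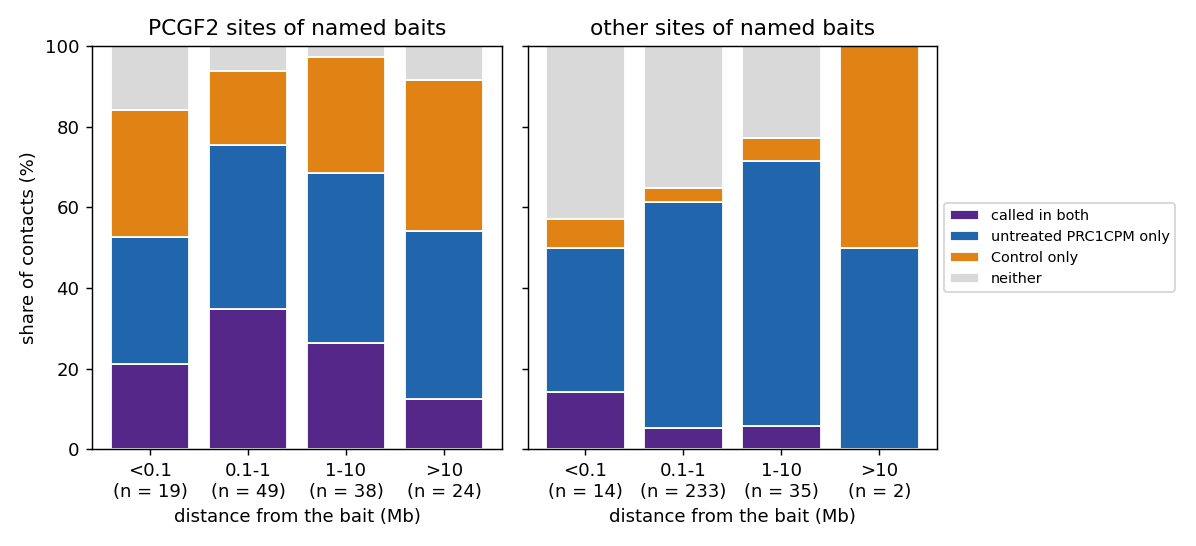
Share of contacts (%) of named baits called in both lines, in untreated PRC1CPM cells only, in Control only or in neither, by distance from the bait in Mb, at PCGF2 sites (left) and other sites (right). Shared calls made up 34.7% of PCGF2-site contacts at 0.1 to 1 Mb and 12.5% of those over 10 Mb, and 5.15% of other-site contacts at 0.1 to 1 Mb.

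Contacts of named baits at PCGF2 sites, whichever line called them, had a longer median distance than those elsewhere but a lower first quartile. Their median distance was 946.6 kb (quartiles 170.4 and 5107), against 390.7 kb at other sites (255.3 and 645.9), and the longest ran over 51470 kb from Nkx2-1 to Bcl11b. That contact had 0 reads in untreated cells and 4 in Control. The 34 shared contacts had a median distance of 791.6 kb (quartiles 194.2 and 1802), those called in untreated cells alone 994.6 kb, and those called in Control alone 3204 kb. Of the 24 contacts over 10 Mb, 13 were called in untreated cells, 12 in Control and 3 in both. Of these, 15 had 10 or fewer reads on average over both lines, and none of the 37 PCGF2-site contacts with so few reads was called in both lines. Among the 46 with over 100 reads on average 21 were shared (45.7%), and among the 47 in between 13 (27.7%). At other sites these shares were 25.0% of 48 and 2.31% of 173.

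Normalized counts at PCGF2 sites were mostly higher in Control, by an amount that depended on the scale. The ratio was above 1 for 107 of 130 contacts, with a median log2 ratio of 0.41 (quartiles 0.08 and 0.74, range -1.04 to 2.74), against -0.03 over the 284 other sites (quartiles -0.37 and 0.34). As a share of the mean counts per fragment, summed over the listed contacts of each bait, the medians were 0.10 and -0.15. By this share 10 PCGF2-site contacts were over 2-fold higher. The reads themselves summed to 41526 in untreated cells and 34984 in Control. These ratios are on the log2(value + pseudocount) scale, which understates the change of contacts with low counts. Over 2-fold higher values were found in Control at 21 PCGF2-site contacts (16.2%, against 4.99% of all 842) and over 2-fold lower values at 1 (against 4.87%). Of the 21, 4 had at least 10 reads in both lines. Exact intervals lay wholly above 0 for 46 contacts (35.4%, against 17.8% of all) and wholly below 0 for 2 (against 2.73%). An interval above 0 can still hold the ratio of equal reads. The 21 included 18 of the 35 contacts called in Control alone, a class that the same reads define.

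**Figure D4:**
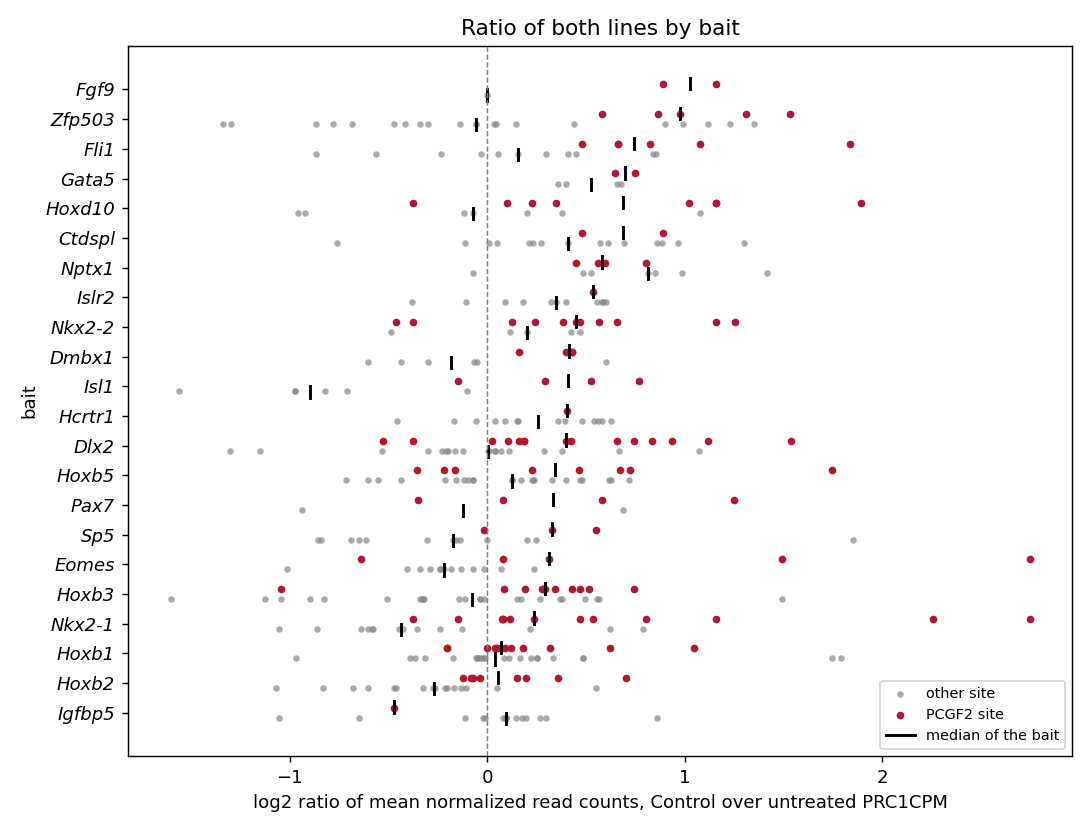
Log2 ratio of mean normalized read counts, Control over untreated PRC1CPM cells (x axis), for each contact of the 22 baits (y axis) that have contacts at PCGF2 sites. Red points are PCGF2 sites, grey points other sites and black ticks the medians of each bait. The red median lies above the grey one in 20 of 22 baits.

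The difference between both kinds of site was also present within baits, where the scale of the experiments drops out. In 20 of 22 baits the median ratio at PCGF2 sites was above that at the other sites of the same bait, with a median difference of 0.38 on the log2 scale (range -0.56 to 1.31). The exceptions were Igfbp5, with 1 contact at a PCGF2 site, and Nptx1. Fgf9 had only 1 other-site contact. The median at PCGF2 sites was highest for Fgf9 (1.02, 2 contacts) and Zfp503 (0.98, 5 contacts) and lowest for Igfbp5, Hoxb2 (0.06) and Hoxb1 (0.07). Across the 47 contacts of Hox baits the median was 0.23 and across the other 83 it was 0.48. In the smaller bait set it was 0.35 (n = 114) at PCGF2 sites and -0.01 at other sites (n = 216), and in the larger 0.71 (n = 16) and -0.11 (n = 68).

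The gap varied with distance, reads and call. Between 0.1 and 1 Mb the median log2 ratio was 0.47 at PCGF2 sites and -0.02 at other sites, and between 1 and 10 Mb it was 0.42 and -0.30. Under 0.1 Mb the order was turned, with 0.15 at 19 PCGF2 sites and 0.38 at 14 other sites. With over 100 reads on average it was 0.32 and 0.12, and with 10 or fewer 0.46 and -0.44. Within calls the gap was smaller: contacts called in both lines had 0.46 at PCGF2 sites and 0.29 at other sites (n = 16), those called in neither 0.28 (n = 9) and 0.22 (n = 96), those called in Control alone 1.02 and 0.92, and those called in untreated cells alone 0.10 and -0.23. Other sites were for the most part in the table through untreated calls (160 of 284 called there alone), against 52 of 130 PCGF2 sites. The part of that mix in the overall gap was not tested.

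Single contacts with the largest ratios, among the 89 with at least 10 reads in both lines, ranged widely in depth. Control was higher for Dlx2 with Gad1 (10 and 23 reads), Eomes with Ctdspl (10 and 21), Fli1 with Barx2, Hoxb1 with sequence near Scrn2 (14 and 21) and Zfp503 with Wnt5a (44 and 66). Barx2, a homeobox gene at 618.1 kb from Fli1, had the most reads of these, 168 in untreated cells and 246 in Control, a log2 ratio of 1.17 with an interval of 0.88 to 1.46. Wnt5a, the gene of a secreted Wnt ligand, had a log2 ratio of 1.20 (0.63 to 1.79). Wnt5a was not called in Control, where its summit scored 4.82, although the mean score over its fragments was 6.63. The Gad1 contact is among the 4 whose summit lay outside, so its lack of a call says nothing of its own fragments, and its mean scores were 2.72 in untreated cells and 8.58 in Control. The mean score was higher in Control for 66 of the 130 contacts at PCGF2 sites and for 22 of the 284 at other sites. The ratio was lowest for Nkx2-2 with Meis2, a TALE homeobox gene at 31116 kb, with 32 and 14 reads (-0.68, -1.70 to 0.27), Hoxb5 with Skap1 (24 and 13) and Hoxb13 (35 and 21), and Hoxb1 with Hoxb6 (524 and 319) and Hoxb4. The intervals for Meis2, Hoxb6 and Hoxb4 lay below the ratio of equal reads, and those for Skap1 and Hoxb13 held it. The Nkx2-2 and Meis2 contact had a summit score of 15.0 in untreated cells and 0 in Control, and Nkx2-2 with Pax6, a paired-box gene of eye and forebrain at 41508 kb, had 55 and 44 reads and scores of 7.51 and 0 (chosen after its values were seen).

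The ends at PCGF2 sites shared features that the comparison did not use. A transcription start site of a protein-coding gene lay inside 58 of the 130 ends, 17 others overlapped an exon, 19 an intron, and 36 were intergenic, against 12, 48, 105 and 119 of the 284 other ends. Developmental transcription factor genes marked 59 of the 130 ends (45.4%), genes of Polycomb subunits 8 and signalling genes 2, whereas none of the other ends of named baits carried a gene of these lists. An end took a gene only from a start site inside it or within 5 kb. That held for 110 of the 130 ends but for 44 of the 284 others. The transcription factor ends were called by untreated cells in 39 cases, by Control in 29 and by both in 14, with a median log2 ratio of 0.19, against 39, 34, 16 and 0.54 for the 61 ends in no list. Hox baits gave 26 of the 59 transcription factor ends. The lists went by gene symbol, and the 61 include Ets1, Insm1, Bhlhe23 and Npas3. These medians therefore do not contrast transcription factor genes with all other genes. Of the 8 Polycomb subunit ends, 6 were called in untreated cells, 5 in Control and 3 in both (median 0.44). Both signalling ends, Wnt5a and Sema7a (373 and 390 reads from Islr2), were called in untreated cells and Sema7a also in Control. Ends with a start site inside were called in both lines in 25 of 58 cases, and the rest in 9 of 72. They were also wider, with a median of 17 fragments against 1. Of the 67 PCGF2-site contacts with several fragments 28 were shared, and of the 63 with 1 fragment 6.

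CpG content differed by call. The ratio of observed to expected CpG in the summit fragment, which is high in CpG islands and low in most of the mouse genome, had a median of 0.49 at PCGF2 sites (quartiles 0.29 and 0.69) and 0.23 at other sites (0.15 and 0.32). Shared contacts at PCGF2 sites had a median of 0.62, those called in Control alone 0.50 and those called in untreated cells alone 0.39. Fragments over 0.6 made up 19 of the 34 shared contacts, 15 of the 35 called in Control alone and 9 of the 52 called in untreated cells alone. The 46 contacts with such fragments were called by untreated cells in 28 cases, by Control in 34 and by both in 19, and the other 84 in 58, 35 and 15 cases. The median log2 ratios were 0.51 and 0.32. The summit was marked by score, so its sequence is not independent of the calls.

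**Figure D5:**
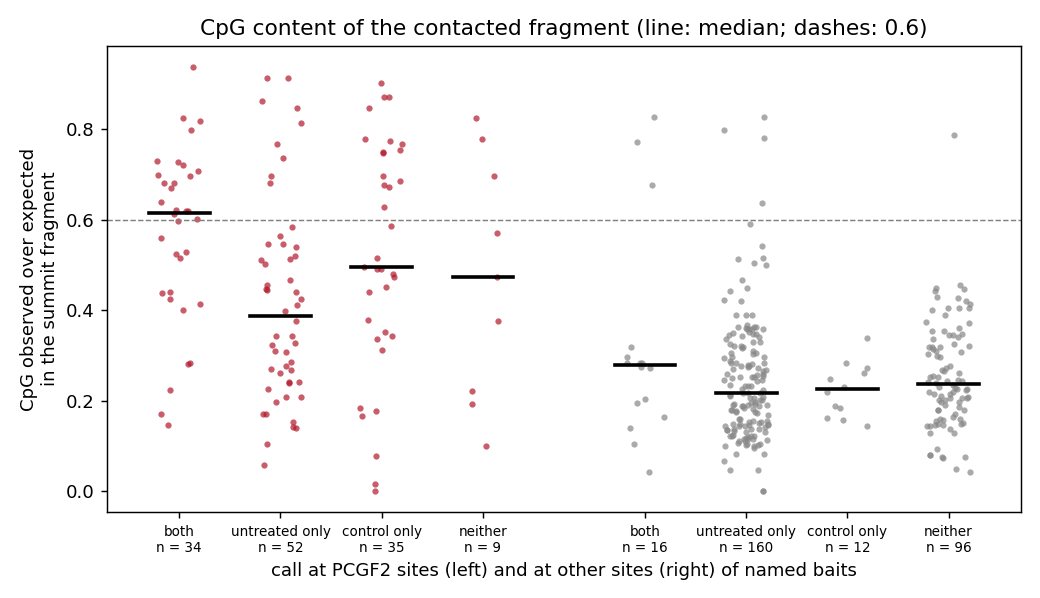
Ratio of observed to expected CpG in the summit fragment of each contact of named baits (y axis), by call, at PCGF2 sites (red) and other sites (grey). Black lines are medians and the dashed line marks 0.6. The median is 0.62 for shared contacts at PCGF2 sites and 0.39 for those called in untreated PRC1CPM cells only.

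Shared contacts without a PCGF2 site were few and mostly short. The 16 contacts of named baits at other sites that both lines called had a median distance of 342.3 kb and none ran over 1454 kb. The 5 with the highest scores in both lines ran from Hoxb5 to the Copz2 region (186 reads in each line at 550.8 kb), from Hoxb2 to exonic sequence at 324.4 kb (24 and 25), and to intergenic sequence from Hoxd10 (25 and 23), Igfbp5 (31 and 25) and Nkx2-2 (296 and 280). Their log2 ratios lay between 0.31 and 0.57. Copz2 encodes a coatomer subunit, and the fragment contacted there had an observed to expected CpG ratio of 0.83, against 0.14 to 0.30 in the other 4.

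The 20 unnamed baits, none of which overlaps a PCGF2 site, showed how PCGF2 sites behaved as ends of other baits. They had 428 contacts, 27 of them at PCGF2 sites. Of these 27, untreated cells called 15, Control 3 and both lines 1, and the median log2 ratio was 0.00, with 14 of 27 above 0. All but 1 of them belonged to the larger bait set, in which the 16 contacts of named baits at PCGF2 sites had a median of 0.71, with 13 called in untreated cells, 12 in Control and 9 in both. At the 401 other sites of unnamed baits the median was 0.16, with 218 called in untreated cells, 69 in Control and 29 in both.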

How the data were processed

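CaptureC libraries of 3 biological replicates per group were aligned and filtered by the authors with HiCUP and Bowtie2 (mm10, which is GRCm38) and pooled, and CHiCAGO gave weighted reads and scores. The deposited signal values are normalized weighted read counts, summed over the fragments of a contact, and the deposited score values are CHiCAGO scores of all fragments and of the summit. The authors joined fragments less than 10 DpnII fragments apart. Columns of groups other than untreated PRC1CPM and Control were not used here.

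Read steps gave whole reads for 100% of values at a tolerance of 0.1. Means per fragment were compared as log2 ratios with a pseudocount of 0.00112. Intervals of single contacts are exact (Clopper-Pearson, 95%). Their computation was checked on simulated reads that held counting error alone, which says nothing of spread between replicates. Below 3 reads a value was taken as the floor in 1 alternative. Genes came from protein-coding GENCODE M21 basic transcripts, by start sites inside an end or within 5 kb. Contacts named were the strongest of each bait, the 10 of highest score, the 10 longest shared, the 5 of largest ratio each way and 5 shared contacts at other sites. Some contacts that these rules name are not reported here. The members and lists were chosen with earlier results of these data known. Python 3.11.15, pandas 2.3.3, scipy 1.17.1, pysam 0.24.0 and matplotlib 3.10.9 were used. Alternatives covered thresholds, scales, pseudocounts, depth, distance and bait sets.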

Additional observations from a re-analysis of the deposited data

How the results depend on the processing

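No paired analysis was possible because each deposited column is a pool of 3 replicates, and for the same reason no replicate could be left out. Calls depended on the threshold. At a score of 3, untreated PRC1CPM cells had 701 calls, Control 396 and both lines 318, and at a score of 10 the counts were 35, 24 and 12. With the mean score over the fragments Control had 109 calls and both lines 29. Named baits alone had 262, 97 and 50 calls, and PCGF2 sites alone 101, 72 and 35. Joined within 10, 50 and 100 kb, an alternative chosen after seeing the data, PCGF2-site loci called in both lines numbered 43, 43 and 41.

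The median log2 ratio at PCGF2 sites of named baits stayed above 0 in all alternatives. It was 0.21 with a pseudocount 10 times larger and 0.71 in the larger bait set. As a share of the summed mean counts of the listed contacts of each bait it was 0.10. At other sites the median was 0.092 with at least 10 reads in both lines and 0.049 above the lower quartile of counts. There it was -0.15 by that share, -0.11 in the larger bait set, -0.30 over 1 Mb and 0.10 for summed counts. Contacts over 2-fold higher in Control numbered 4 with at least 10 reads and 10 by share, and those over 2-fold lower 0 with a floor of 3 reads and 0 with at least 10 reads. Baits with the same strongest contact numbered 5 by mean score, 5 by summit score and 5 over 1 Mb. The correlation between lines was 0.80 after the median of each distance class was removed and -0.20 for scores. The cause was not tested. Few reads limit contacts over 10 Mb, where the floor of 3 reads is close to the median.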
